A study of Homo sapiens with 4 samples.

Results

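The genes described here encode the factors that start and extend protein chains on the cytoplasmic ribosome, together with the enzymes that regulate them. They were taken as every GENCODE protein-coding gene whose symbol starts with EIF (eukaryotic initiation factor) or EEF (eukaryotic elongation factor) and a digit, which gave 70 of 19702 protein-coding genes. A gene was said to have a promoter peak where the summit of a ChIP-seq peak lay no more than 1 kb from where one of its protein-coding transcripts starts (TSS, transcription start site). The naming rule itself uses no measured value, but the genes were chosen with earlier results of these data known.

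Translation begins when eIF2 brings the initiator tRNA to the small ribosomal subunit, where eIF1, eIF1A, eIF3 and eIF5 help to find the start codon. The mRNA is delivered by the cap-binding eIF4E, the scaffold eIF4G and the RNA helicase eIF4A. During elongation eEF1A carries aminoacyl-tRNA to the ribosome, eEF1B recharges it with GTP, and eEF2 moves the ribosome along the message. c-MYC is a transcription factor that binds DNA as a dimer with MAX, preferably at the E-box CACGTG, and genes for ribosome and translation components are among its textbook targets.

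c-MYC binding was profiled by ChIP-seq (chromatin immunoprecipitation followed by sequencing) in the human pancreatic ductal adenocarcinoma line MIA PaCa-2. The cells received DMSO, AMG510 at 100 nM or the MEK inhibitor trametinib at 10 nM for 8 h, and each treatment gave 1 library with a c-MYC antibody. Cells given DMSO also gave 1 library with non-specific IgG. With 1 library per group and a single cell line, every difference below is between libraries, has no replicate check and carries no test, and a drug effect cannot be told apart from a difference between library preparations. Peak lists hold no expression, so the identity of the line was not checked.

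Between 2966 peaks (IgG) and 10378 peaks (AMG510) were listed per library, and the tags (aligned read ends) that had entered peak calling numbered 22800000 for IgG, 24000000 for DMSO, 24400000 for AMG510 and 24800000 for trametinib, rounded as the deposited values allow. Strength is given as the number of tags piled up at a summit, recovered from the deposited values, with an exact Poisson 95% interval that covers counting error only and is too narrow where both mates of a fragment were counted. The median peak held 10 to 13 tags, and where the background was that of the whole genome, a call needed 7 or 8 tags. A gene without a listed peak may therefore still be bound below that level.

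Translation factor genes had c-MYC promoter peaks more often than protein-coding genes as a whole. In DMSO, 35 of 70 had one, a share of 50% (exact binomial 95% interval 37.8 to 62.2), beside 24.2% of all protein-coding genes. In AMG510 it was 29 genes, or 41.4% (29.8 to 53.8), beside 15.3%, and in trametinib 27 genes, or 38.6% (27.2 to 51.0), beside 11.8%. A peak in all 3 c-MYC lists was found at 20 genes, or 28.6% (18.4 to 40.6), beside 5.59%, and a peak in at least 1 of them at 43 genes, or 61.4%, beside 31.7%. EEF1AKMT4 and its read-through gene EEF1AKMT4-ECE2 had the same peaks in every c-MYC list. They count as separate genes here and in the gene counts below, although the intervals treat genes as independent. IgG gave a promoter peak at 1 gene, EIF2S3B, an intronless copy of the eIF2 gamma subunit gene EIF2S3, beside 0.594% of all genes. That peak held 12 tags with its summit 27 bp upstream of the start, and the gene had none in any c-MYC list.

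**Figure D1:**
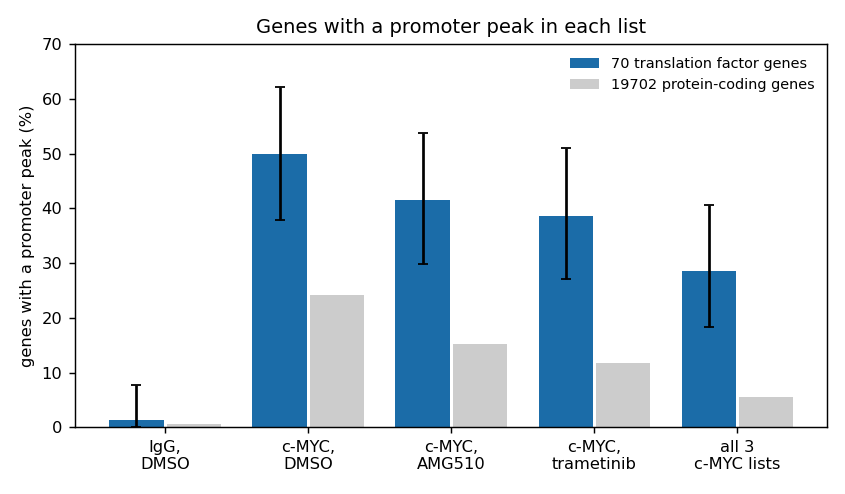
Percent of genes with a promoter peak in each list (vertical axis), for the 70 translation factor genes with exact binomial 95% intervals and for all 19702 protein-coding genes; each list is 1 library. Translation factor genes reach 50% (DMSO), 41.4% (AMG510) and 38.6% (trametinib), and the whole-genome shares lie below the intervals of all 3 c-MYC lists.

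The peaks were also strong within their own lists. The strongest promoter peak of a translation factor gene had a median of 21 (DMSO), 16 (AMG510) and 18 (trametinib) tags, beside 16, 13 and 15 tags over all genes with a promoter peak. By fold enrichment, 17 of the 35 genes in DMSO reached the top decile of the list (48.6%, beside 17.7% of all genes with a promoter peak), as did 10 of 29 in AMG510 (34.5%, beside 19.8%) and 8 of 27 in trametinib (29.6%, beside 15.7%). Above a fold enrichment of 5, DMSO kept 27 genes, beside 12.1% of all genes, AMG510 kept 15, beside 5.75%, and trametinib kept 15, beside 4.86%. That threshold moved the drug counts by over 1.5 times, and not the DMSO count.

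The elongation factors were among the most completely covered groups. Of the 6 genes of the eEF1 group, EEF1A1, EEF1B2, EEF1D and EEF1E1 had a promoter peak in all 3 c-MYC lists, EEF1G had one in DMSO and AMG510, and EEF1A2 had none. The shares of all genes were 24.2% (DMSO), 15.3% (AMG510), 11.8% (trametinib) and 5.59% (all 3 c-MYC lists). EEF1A1, which encodes the main carrier of aminoacyl-tRNA, has a canonical transcript over bases 73515750 to 73521032 of chromosome 6 (GRCh38, minus strand). Its peak held 54 tags in DMSO (40.6 to 70.5), 38 in AMG510 (26.9 to 52.2) and 33 in trametinib (22.7 to 46.3). DMSO was the highest of the libraries, and its interval overlapped both others. The DMSO peak ran from 73520386 to 73520976, with its summit in intron 1.

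EEF1B2, a subunit of the exchange factor eEF1B, held 39 tags in DMSO (27.7 to 53.3) and 20 tags under each drug (12.2 to 30.9). The drug libraries were thus level with each other and below DMSO, with overlapping intervals. EEF1E1, which belongs to the multisynthetase complex of tRNA-charging enzymes, held 18 (DMSO), 17 (AMG510) and 13 (trametinib) tags, with overlapping intervals. At EEF1G, another eEF1B subunit, 14 tags were found in DMSO and 8 in AMG510, the latter close to the fewest tags that gave a call. EEF1D, also part of eEF1B, held 21 tags in DMSO, and the peaks that overlapped that site held 14 tags in AMG510 and 18 tags in trametinib. A separate pair of peaks at EEF1D held 18 tags in DMSO and 15 in AMG510.

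EEF2, the translocase, stood apart from the other strong genes in AMG510. It held 43 tags in DMSO (31.1 to 57.9), 42 in AMG510 (30.3 to 56.8) and 29 in trametinib (19.4 to 41.6), and its AMG510 count was the second highest of all translation factor genes in that list, whereas in DMSO 7 distinct peaks of these genes held more. The peaks overlapped, with summits in intron 1 at 183, 171 and 152 bp from the TSS. The kinase that inhibits eEF2, EEF2K (14 tags), and the methyltransferase EEF2KMT (16 tags) had a promoter peak in DMSO and in neither drug list.

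Enzymes that methylate eEF1A gave the lowest drug-to-DMSO tag ratios at overlapping peaks, 0.297 for EEF1AKMT3 in AMG510 and 0.333 for EEF1AKMT4 in trametinib. EEF1AKMT3 held 37 tags in DMSO (26.1 to 51.0), 11 in AMG510 (5.49 to 19.7) and 13 in trametinib (6.92 to 22.2), so the DMSO interval lay above both others. Its peak, on chromosome 12 from 57771878 to 57772189 in DMSO, had its summit 74 bp from a TSS of METTL1, which encodes a tRNA methyltransferase, and 169 bp from the nearest TSS of EEF1AKMT3. EEF1AKMT4 and the read-through gene EEF1AKMT4-ECE2 shared 1 DMSO peak of 48 tags (35.4 to 63.6), which lay 114 bp from a TSS of ALG3, a mannosyltransferase gene, and 851 bp upstream of EEF1AKMT4. The AMG510 peak counted for this pair, with 16 tags, lay 1052 bp from the DMSO summit in coding exon 1 and did not overlap it, whereas a trametinib peak of 16 tags did. EEF1AKMT1 held 21, 14 and 12 tags in DMSO, AMG510 and trametinib, and EEF1AKMT2 had no peak.

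The eIF4 group, which recruits the mRNA, contained the translation factor gene with the most tags in each c-MYC list. EIF4G1, the main eIF4G scaffold, held 84 tags in DMSO (67.0 to 104), 48 in AMG510 (35.4 to 63.6) and 45 in trametinib (32.8 to 60.2), and DMSO was above both drug libraries without overlap of the intervals. The DMSO peak ran from 184314496 to 184315195 on chromosome 3 and its summit lay in intron 1, 130 bp downstream of the canonical TSS, with the AMG510 and trametinib summits 23 and 32 bp away. EIF4A1, the helicase of the cap-binding complex, held 53 tags in DMSO (39.7 to 69.3), 20 in AMG510 (12.2 to 30.9) and 22 in trametinib (13.8 to 33.3), again without overlap. In rank, however, EIF4G1 exceeded 99.4% of the DMSO list, 99.4% of the AMG510 list and 97.5% of the trametinib list, whereas EIF4A1 exceeded 97.4%, 69.6% and 74.3%.

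EIF4G3, a second eIF4G scaffold, held 49 tags in DMSO (36.3 to 64.8), 34 in AMG510 (23.5 to 47.5) and 20 in trametinib (12.2 to 30.9). Only the trametinib interval was clear of DMSO. EIF4H, a cofactor of the helicase, held 30 (DMSO), 15 (AMG510) and 22 (trametinib) tags, the last at a separate summit 317 bp upstream of the TSS, beside a trametinib peak of 15 tags that overlapped the DMSO peak. EIF4A2, the paralogue of EIF4A1, was weak in DMSO, with 18 tags (10.7 to 28.4), and held 14 in AMG510 (7.65 to 23.5) and 24 in trametinib (15.4 to 35.7). EIF4B, also a helicase cofactor, had a peak in DMSO (17 tags) and trametinib (11 tags). The cap-binding protein gene EIF4E (18 tags), EIF4G2 (13 tags) and EIF4ENIF1 (10 tags) had one in DMSO alone, and EIF4E2, which encodes a cap-binding relative of eIF4E, in AMG510 alone (16 tags). EIF4A3, EIF4E1B and EIF4E3 had none. In all, a promoter peak was present at 9 of the 13 genes in DMSO and at 6 in each drug list. The shares of all genes were 24.2% (DMSO), 15.3% (AMG510) and 11.8% (trametinib).

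eIF3 is the large complex that holds the initiation machinery together. Of its 14 genes, 3 had a promoter peak in DMSO, a count near the 24.2% of all genes, and these (EIF3B, EIF3D and EIF3E) had one in each drug list too. EIF3B held 46 tags in DMSO (33.7 to 61.4), 27 in AMG510 (17.8 to 39.3) and 35 in trametinib (24.4 to 48.7). EIF3D held 35, 19 and 22 tags and EIF3E 33, 17 and 27 tags in the same order. For these subunits DMSO was highest and the intervals overlapped, and each peak exceeded at least 96.0% of its own list. EIF3J had a peak in both drug lists (13 and 16 tags), EIF3M in AMG510 (10 tags) and EIF3A in trametinib (13 tags), which brought both drug lists to 5 genes. The shares of all genes were 15.3% (AMG510) and 11.8% (trametinib). EIF3C, EIF3CL, EIF3F, EIF3G, EIF3H, EIF3I, EIF3K and EIF3L had none.

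eIF2 and the factors of start-site choice showed mostly weak peaks. EIF2D, which can deliver initiator tRNA without the usual GTP cycle, held 19 (DMSO), 16 (AMG510) and 14 (trametinib) tags. EIF1, a gatekeeper of start codon choice, held 14, 16 and 19 tags in that order, with the DMSO summit 400 bp from that of AMG510 and 475 bp from that of trametinib, so the AMG510 and trametinib peaks overlapped each other and not the DMSO peak. EIF2S2, the beta subunit of eIF2, had a peak in DMSO (23 tags) and AMG510 (18 tags), as did EIF1AX, which encodes eIF1A, where the strongest peaks (22 and 13 tags) lay apart and the AMG510 peak at the DMSO site held 9 tags. EIF2A had non-overlapping peaks in DMSO (17 tags) and trametinib (16 tags). EIF2S1, the alpha subunit, had one in AMG510 alone (9 tags), 24 bp from a TSS of ATP6V1D, and EIF5, which triggers GTP hydrolysis by eIF2, had 13 tags in each drug list. EIF1AD, EIF1AY, EIF1B, EIF2S3, EIF2S3B and EIF5B had no c-MYC promoter peak. Peaks were thus present at 5 (DMSO), 6 (AMG510) and 4 (trametinib) of 13 genes, beside 24.2%, 15.3% and 11.8% of all genes.

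The genes that regulate eIF2 were listed as 2 groups, the kinases and eIF2B. A promoter peak was present in DMSO at 3 of the 4 kinase genes and 1 of the 5 eIF2B genes, beside 24.2% of all genes. In either drug list it was 0, beside 15.3% (AMG510) and 11.8% (trametinib) of all genes. Of all genes with a DMSO promoter peak, 44.9% had none under either drug. The share was 57.3% of those with under 20 tags and 16.7% of those with 20 tags or more. The kinases that phosphorylate the alpha subunit of eIF2 under stress are EIF2AK1 (haem shortage), EIF2AK2 (double-stranded RNA), EIF2AK3 (unfolded proteins in the endoplasmic reticulum) and EIF2AK4 (amino acid shortage). EIF2AK1 held 19 tags in DMSO (11.4 to 29.7), EIF2AK2 14 (7.65 to 23.5) and EIF2AK3 30 (20.2 to 42.8), and none of these genes had a promoter peak in either drug list. The EIF2AK3 peak of 30 tags belongs to an alternative start and lies 299 bp from a TSS of RPIA, which encodes an enzyme of the pentose phosphate pathway. At the canonical start of EIF2AK3 a separate DMSO peak held 12 tags (6.20 to 21.0). EIF2AK4 had no peak. EIF2B5, the catalytic subunit of the eIF2 exchange factor, had 15 tags in DMSO and no peak under either drug, and the other 4 eIF2B genes had none.

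EIF5A, which helps the ribosome through difficult peptide bonds and carries the modified residue hypusine, had the highest fold enrichment of these genes in DMSO. It held 81 tags there (64.3 to 101), 39 in AMG510 (27.7 to 53.3) and 42 in trametinib (30.3 to 56.8), without overlap of DMSO and either drug. Fold enrichment was 12.2, 9.77 and 8.96 in the same order, and the peak exceeded 99.6%, 99.4% and 98.3% of its list. The DMSO peak covered bases 7307921 to 7308601 of chromosome 17. Its summit fell in intron 1 of the canonical transcript, 70 bp before the nearest TSS. EIF5A2, its paralogue, had a peak in AMG510 alone (14 tags), and EIF5AL1 had none. EIF4EBP1, which encodes a repressor of eIF4E, had 2 separate DMSO peaks (16 and 15 tags) and 1 trametinib peak (18 tags) that overlapped neither. EIF4EBP2 and EIF4EBP3 had none. EIF6, which keeps the large ribosomal subunit from joining too early, had a peak in trametinib alone (17 tags).

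**Figure D2:**
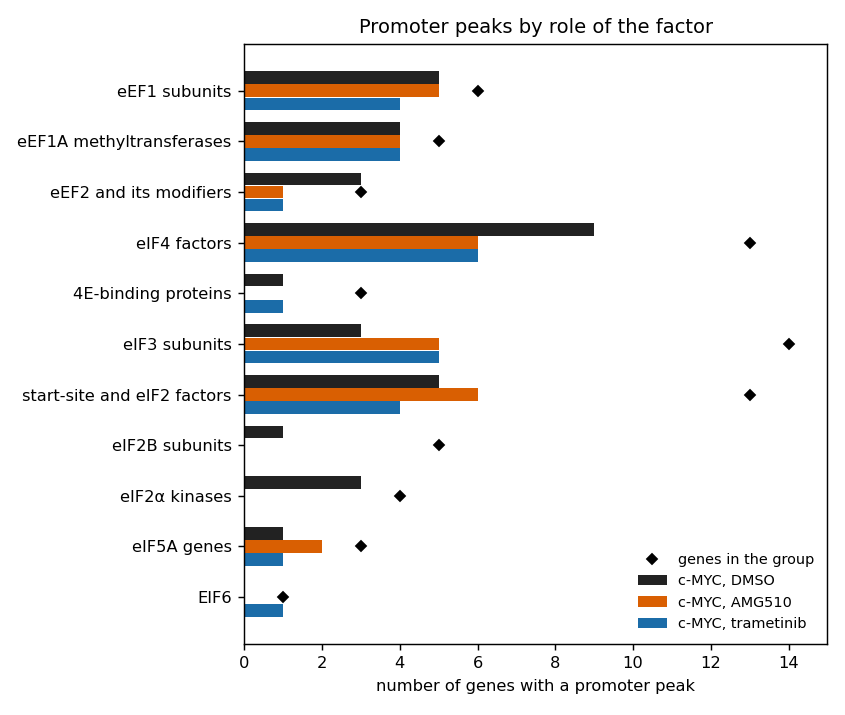
Number of genes with a promoter peak in each c-MYC list (bars) and number of genes in each role group (diamonds); 1 library per treatment. The group labelled eEF1 subunits, which also holds EEF1E1 of the multisynthetase complex, has 5, 5 and 4 of 6 genes in DMSO, AMG510 and trametinib. The eIF2α kinases have 3, 0 and 0 of 4 genes in the same order. Over all genes the shares are 24.2%, 15.3% and 11.8%.

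Under both drugs the promoter peaks of these genes mostly held fewer tags than in DMSO. Both comparisons use the same DMSO library. The strongest promoter peak of each gene was compared, and its summit was within 100 bp of that of DMSO at 13 of 23 genes in AMG510 and 15 of 23 in trametinib, so some genes are compared at separate sites. A promoter peak in DMSO and AMG510 was found at 23 genes, of which 22 held fewer tags in AMG510 and EIF1 held more, with a median ratio of 0.587. Over all 2047 genes with a peak in both lists, 82.4% held fewer, with a median ratio of 0.722. For trametinib, 20 of 23 genes held fewer tags and EIF1, EIF4A2 and EIF4EBP1 held more, with a median ratio of 0.647, beside 80.4% and 0.75 over 1685 genes. Because translation factor genes had stronger DMSO peaks, the same was computed for genes with 20 tags or more in DMSO. There the medians were 0.557 for 18 translation factor genes and 0.60 for all 1030 genes in AMG510, and 0.554 for 16 and 0.625 for all 945 genes in trametinib. Fewer tags than in DMSO were held by 100% of the translation factor genes and 96.7% of all genes in AMG510. In trametinib it was 100% and 95.3%. Choosing genes by high DMSO tags tends by itself to lower drug-to-DMSO ratios, in all genes too. The values after that choice are to be read beside each other only, not beside those before it. The c-MYC libraries differed little in depth. By rank, meaning the percent of its own list with lower fold enrichment, the picture differed. The median change from DMSO to AMG510 was -2.79 points for translation factor genes and -2.77 for all genes. To trametinib it was -2.45 and -8.08. With 20 tags or more in DMSO it was -3.17 and -8.20 in AMG510, and -2.26 and -12.9 in trametinib. By rank, translation factor genes thus did not fall clearly further than all genes.

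At the same site, meaning the strongest DMSO promoter peak and a drug peak that overlapped it, the direction was alike. Of 34 distinct DMSO peaks, 20 were overlapped in AMG510, and all 20 held fewer tags there, with a median ratio of 0.579, beside 84.0% and 0.708 over 1453 peaks of all genes. In trametinib 19 were overlapped and 18 held fewer tags, with a median ratio of 0.611, beside 82.1% and 0.737 over 1212 peaks. The exception was EIF4A2, and the trametinib peaks with more tags at EIF1 and EIF4EBP1 overlapped no DMSO peak. EIF4H held 30 tags in DMSO and 15 at the overlapping peak of each drug. The same-site values were not matched for DMSO strength, which was higher for translation factor genes, so the gap to all genes may partly reflect that strength.

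The drug interval lay wholly below the DMSO interval at 4 of the 20 overlapping sites in AMG510, those of EEF1AKMT3, EIF4A1, EIF4G1 and EIF5A. In trametinib it did so at 6 of 19 sites, the same 4 with EIF4G3 and the peak shared by EEF1AKMT4 and its read-through. These were strong DMSO peaks, with 37 to 84 tags, and intervals of strong peaks separate more readily. Over the peaks of all genes, the drug interval lay below that of DMSO at 92 of 1453 overlapping sites in AMG510 and 76 of 1212 in trametinib. In no translation factor gene was the drug interval above that of DMSO. The same held for all 2047 (AMG510) and 1685 (trametinib) genes with a promoter peak in both lists.

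**Figure D3:**
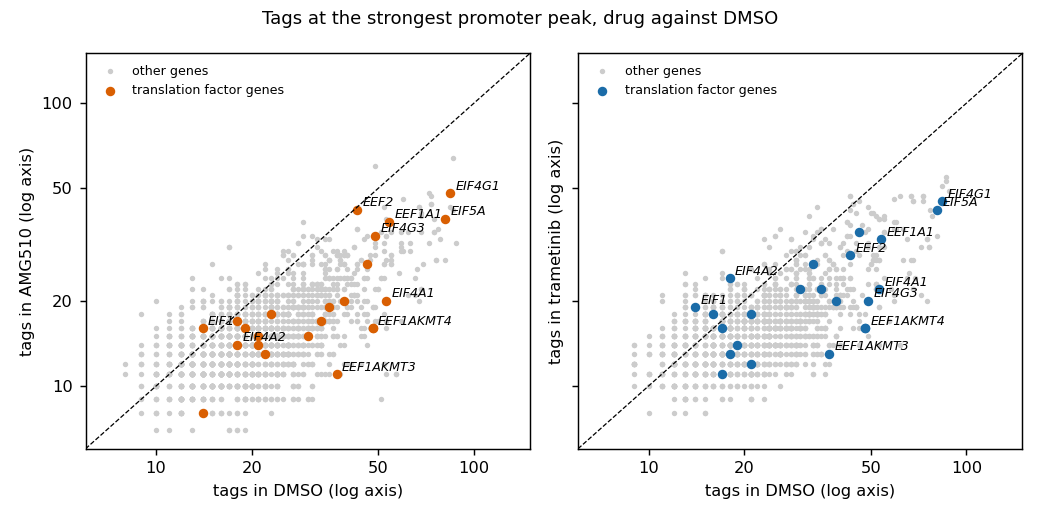
Tags at the strongest promoter peak of each gene in the drug library (vertical, log axis) against DMSO (horizontal, log axis), left AMG510 and right trametinib; grey points are other protein-coding genes, the dashed line marks equal tags, and each point is 1 gene in 1 library per axis. Of the translation factor genes, 22 of 23 lie below the line in AMG510 and 20 of 23 in trametinib.

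**Figure D4:**
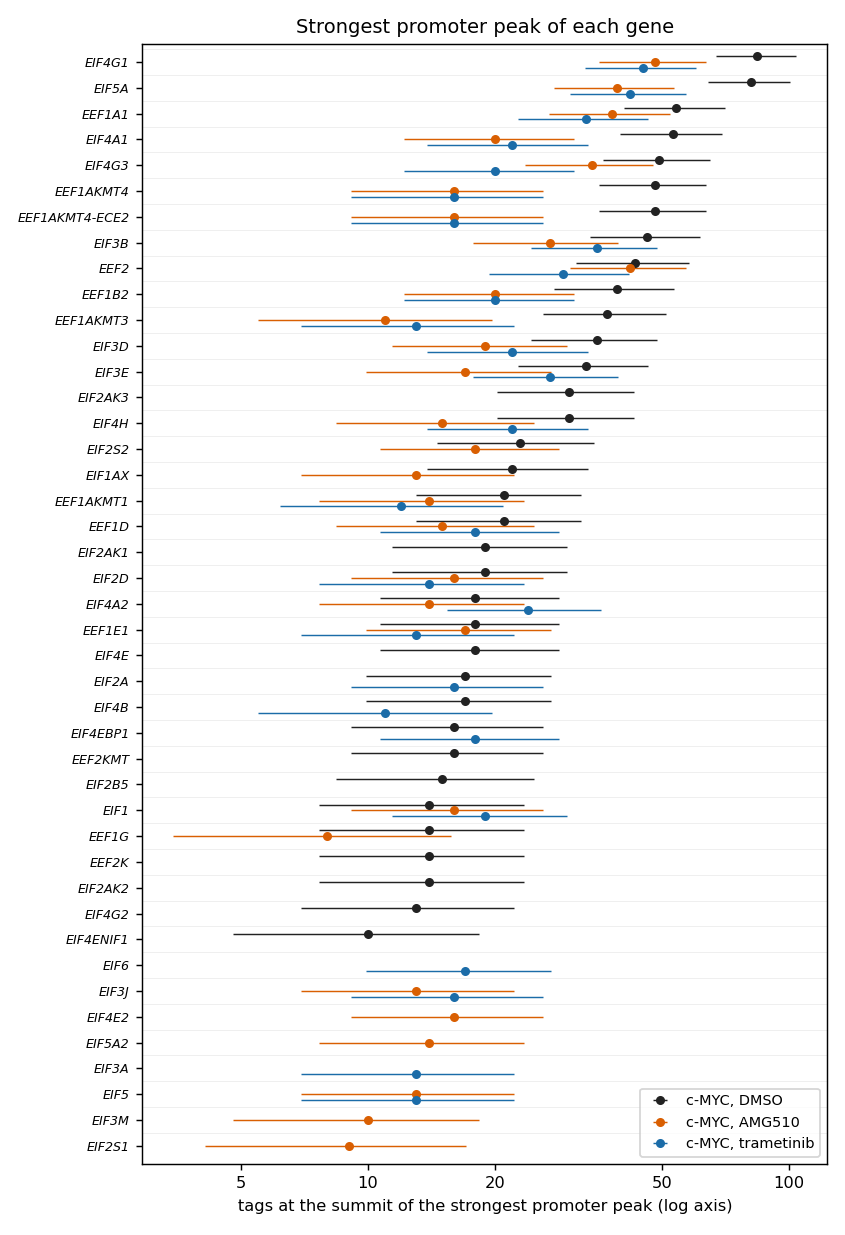
Tags at the strongest promoter peak (log axis) of the 43 translation factor genes with a c-MYC promoter peak; bars are exact Poisson 95% intervals for 1 library each, and a missing point means that no peak was listed. EIF4G1 and EIF5A are highest in DMSO with 84 and 81 tags, and 8 genes at the bottom have no DMSO point.

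How often a DMSO peak was met again depended on its strength. Of the 35 genes with a promoter peak in DMSO, 23 (65.7%, 47.8 to 80.9) also had one in AMG510 and 23 in trametinib, beside 42.9% and 35.3% of all genes with a DMSO promoter peak. With 20 tags or more in DMSO, 18 of 19 genes had one in AMG510 and 16 of 19 in trametinib (94.7% and 84.2%, beside 70.8% and 64.9% of all such genes). Under 20 tags it was 5 of 16 and 7 of 16 (31.3% and 43.8%, beside 30.7% and 22.3%). Counted by peaks, 22 of 38 DMSO promoter peaks (57.9%, 40.8 to 73.7) overlapped an AMG510 peak and 19 (50%, 33.4 to 66.6) a trametinib peak, beside 33.2% and 27.7% of all DMSO promoter peaks.

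In neither drug list was there a promoter peak for 9 of the 35 genes, EEF2K, EEF2KMT, EIF2AK1, EIF2AK2, EIF2AK3, EIF2B5, EIF4E, EIF4ENIF1 and EIF4G2. That is 25.7% (12.5 to 43.3), beside 44.9% of all genes with a DMSO promoter peak. Apart from EIF2AK3 with 30 tags, they held 10 to 19 tags in DMSO. Of all genes with under 20 tags, 57.3% had no drug peak, and of those with 20 tags or more, 16.7%. By fold enrichment the 5 highest were EIF2AK3 (10.2), EEF2KMT (6.60), EIF2AK1 (6.12), EIF4E (6.01) and EEF2K (5.06).

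A promoter peak in a drug list without one in DMSO was present at 8 genes. It was 6 of the 35 genes without a DMSO peak for AMG510 (17.1%, 6.56 to 33.6, beside 6.46% of all such genes) and 4 of 35 for trametinib (11.4%, 3.20 to 26.7, beside 4.33%). EIF3J and EIF5 were in both sets, EIF2S1, EIF3M, EIF4E2 and EIF5A2 in AMG510 alone, and EIF3A and EIF6 in trametinib alone. None of these peaks held more than 17 tags. At EIF3J the AMG510 peak, from 44537242 to 44537739 on chromosome 15, and the trametinib peak, from 44537374 to 44537700, overlapped in intron 2.

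Summits lay close to and mostly downstream of the start. Of the 38 DMSO promoter peaks, 23 had their summit in intron 1 of the canonical transcript, 10 lay upstream, and 5 in an exon, where 2 fell in a 5′ untranslated region (UTR) and 3 in coding sequence. The median distance to the nearest TSS was 176 (DMSO), 130 (AMG510) and 123 bp (trametinib), beside 168, 168 and 156 bp over all promoter peaks. A summit was downstream of the nearest TSS in 68.4%, 70% and 75% of the peaks, beside 66.8%, 66.1% and 66.8%. Nearest to the 1 kb limit on the inside was the trametinib peak 939 bp upstream of EEF1AKMT4 and 962 bp upstream of its read-through (16 tags), and on the outside a trametinib peak 1084 bp downstream of the EIF4EBP1 start (17 tags). A DMSO peak of 32 tags lay 1276 bp downstream of the EEF2 start.

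**Figure D5:**
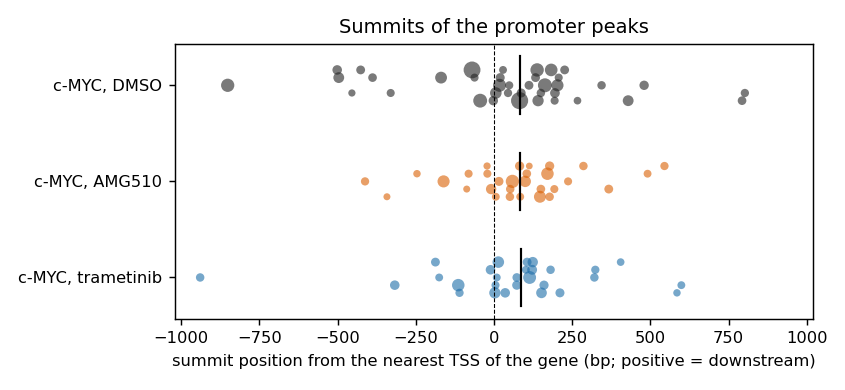
Distance of each promoter peak summit from the nearest TSS of its gene in bp (horizontal; positive is downstream) for the 3 c-MYC lists; point area grows with tags and the black bars are medians. Medians lie between 83 and 87.5 bp downstream in all 3 lists.

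Some of these promoters are shared with other genes. In DMSO, 9 of 38 peaks (23.7%) also lay within 1 kb of a TSS of a gene outside the set, where 13.6% of all DMSO promoter peaks lay that close to more than 1 gene, and 6 were closer to that gene than to the translation factor gene, at EEF1AKMT3, EEF1AKMT4, EEF1D, EIF2A, EIF2AK3 and EIF4ENIF1. At EIF4ENIF1 the summit was 4 bp from a TSS of SFI1 and 6720 bp upstream of the canonical EIF4ENIF1 start. For these peaks the list cannot say which gene the site belongs to.

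The E-box CACGTG, which reads the same on both strands, was found at most 100 bp from the summit for 11 of 38 DMSO promoter peaks (28.9%, 15.4 to 45.9), beside 16.9% of all DMSO promoter peaks. In AMG510 it was 6 of 30 (20%, beside 14.4%) and in trametinib 7 of 28 (25%, beside 17.3%), and all 3 intervals hold the share of all promoter peaks. The 11 DMSO peaks belong to EEF1AKMT3, EEF1B2, EEF1D, EEF1E1, EEF2K, EEF2KMT, EIF1AX, EIF2AK2, EIF2AK3, EIF3E and EIF4B. With the variant CACGCG, searched on both strands, 12 of 38 DMSO peaks held either motif (31.6%, beside 36.9%). No CACGTG lay within 100 bp of the DMSO summits of EIF4G1, EIF5A, EEF1A1, EIF4A1 and EIF4G3, the 5 genes with the most tags.

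E-boxes near DMSO summits are printed here for 5 genes with a peak in every c-MYC list, so that the motif can be seen in its flanks, as 30 bases of the GRCh38 plus strand from 5′ to 3′ with the motif in capitals. In EEF1B2 (chr2:206160105-206160134) and EEF1E1 (chr6:8102296-8102325) the motif lay in intron 1, 21.5 and 37.5 bp from the DMSO summit, and in EEF1AKMT3 (chr12:57772102-57772131) upstream, 85.5 bp away. In EIF4G1 (chr3:184314823-184314852) and EIF5A (chr17:7308094-7308123) it lay in intron 1 at 101.5 and 192.5 bp.

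EEF1B2: cggggccggggcCACGTGgcgcagcgtgtc
EEF1E1: tagcggcgcagaCACGTGgggagctgggta
EEF1AKMT3: ctctaccaaatcCACGTGgaggcgcaggcc
EIF4G1: cgatccccggccCACGTGtgcctggcccgg
EIF5A: gctcagcgcggcCACGTGaggtgggggagg

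An E-box within 100 bp of a DMSO summit was also present at 4 of the 9 genes that had a promoter peak in DMSO and none under either drug, beside 13.1% of all 2142 such genes, and at 7 of the 26 genes with a drug peak, beside 22.7% of all 2630 such genes. It lay 5.5 bp from the summit at EEF2K (chr16:22206207-22206236) and EIF2AK3 (chr2:88691963-88691992, the peak near RPIA), 15.5 bp at EIF2AK2 (chr2:37157144-37157173) and 46.5 bp at EEF2KMT (chr16:5097531-5097560). They are shown, in the same way, as the motif instances at sites not called under either drug.

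EEF2K: cctgggggcggcCACGTGagcgccacgccg
EIF2AK3: gctgtggagaacCACGTGagggtgagcact
EIF2AK2: gggcttggcaccCACGTGctgcccctgcac
EEF2KMT: agcccaggaactCACGTGgcgggagcgcca

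Sequence features of the promoters that do not come from the ChIP were counted as well. In the window from 250 bases before to 50 bases after the canonical TSS, CACGTG was present in 17 of 70 genes (24.3%), beside 8.75% of all 19702 protein-coding genes, and CACGCG in 11 (15.7%, beside 15.3%). The transcript began with C followed by 4 pyrimidines, the start of a terminal oligopyrimidine (TOP) mRNA, the class of messages whose translation follows nutrient signalling, in 21 genes (30%), beside 4.63%. They included EEF1A1, EEF1B2, EEF1D, EEF2, EIF4B and 10 of the 14 eIF3 genes. Annotated starts need not be the starts used in these cells. A DMSO promoter peak was present at 9 of the 17 genes with CACGTG in the window and 26 of the 53 without (52.9% and 49.1%, beside 36.7% and 23.0% over all genes), and at 10 of the 21 genes with a TOP start (47.6%, beside 34.5% of all genes with one). Median GC content was 64.3% for translation factor genes with and without a DMSO peak alike, and 68.7% and 61.7% for all genes with and without one.

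Related translation genes fall outside the naming rule, and their counts are to be read beside the 24.2% (DMSO), 15.3% (AMG510) and 11.8% (trametinib) of all genes. Of 8 genes for termination and ribosome recycling, DMSO had a promoter peak at 3, AMG510 at 2 and trametinib at 1, and ETF1, the release factor, was in every list (26, 12 and 16 tags). Of 10 regulators of the factors, 5, 5 and 3 had one, with PABPC1 (poly(A)-binding protein), PAIP1 and PDCD4, an inhibitor of eIF4A, in every list. Of 9 mitochondrial translation factors, 3, 2 and 1 had one, and the recycling factor gene MRRF was in every list (17, 11 and 18 tags). None of these genes had an IgG promoter peak.

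No c-MYC promoter peak was listed for 27 of the 70 genes. EIF3C and EIF3CL are near-identical copies. In windows of 1 kb on either side of their starts they shared 96.7% of 50-base stretches, and reads that match both are lost where alignments of low mapping quality are removed, so the absence of a peak there is not informative. No other pair of these genes shared more than 0.564% of such stretches, leaving aside the overlapping EEF1AKMT4 pair.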

How the data were processed

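According to the study's methods and the submitters' processing notes, paired reads were trimmed with Trimmomatic 0.39, aligned to GRCh38 with BWA 0.7.17, filtered at mapping quality 20 with SAMtools 1.9, stripped of duplicates with Picard and converted to intervals with bedtools 2.27.1. Peaks were called per library with MACS2 2.2.7.1 at default settings, and the authors removed those on the ENCODE exclusion list. The deposited score is 10 times −log10 of the q-value without its decimals. The deposited fold enrichment is a ratio of pileup to background at the summit, and the authors also deposited −log10 of each summit's p-value and q-value. Because calls used each library's own background and depth, a given score need not mark the same binding in different libraries.

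Tags and background were solved from fold enrichment and p-value, which gave a whole number of tags for 100% of peaks within 0.001 in −log10 p. Depth was taken from the most frequent background, the shortest peak width and a genome of 2700000000 bp. The recovery and the assignment to TSSs were checked on simulated data. TSSs came from GENCODE version 44, and bases from a GRCh38 genome. Overlap meant at least 1 bp. Python 3.11.15, scipy 1.17.1, pandas 2.3.3 and pysam 0.24.0 were used. Groups came from sample titles. No test was run. Shares have exact binomial (Clopper-Pearson) intervals, which treat genes as independent. Genes and lists were chosen with earlier results of these data known. Genes were described in full when they had a peak in all 3 c-MYC lists, one of the 10 highest DMSO fold enrichments, one of the 5 highest among DMSO-only genes, a drug peak without a DMSO peak, or an IgG peak. Sequences were fixed for the first of these sets, and those of EIF4G1, EIF5A and the DMSO-only genes were added after the values were seen. The alternatives were other thresholds, equal list lengths, windows, sets of TSSs, overlap rules, motif distances and scaling by depth. The split at 20 tags and the comparison of overlapping peaks were added after the data were seen.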

Additional observations from a re-analysis of the deposited data

Results flagged for a closer look

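EIF4A2 was the only translation factor gene with a promoter peak in all 3 c-MYC lists at which the drugs differed from DMSO in opposite directions. It held 18 tags in DMSO (exact Poisson interval 10.7 to 28.4), 14 in AMG510 (7.65 to 23.5) and 24 in trametinib (15.4 to 35.7). The difference from DMSO was -4 tags for AMG510 and 6 tags for trametinib. All 3 intervals overlap, there is 1 library per treatment, and whether the drugs differ from each other was not tested. The summits were not the same either, at 133 bp (AMG510) and 282 bp (trametinib) from that of DMSO.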

How the results depend on the processing

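For 14 results, 75 values under alternatives were computed. Of these, 59 stayed within 1.5 times the reported count or within the interval of the reported share or median tags and 16 moved further. With a fold enrichment above 5, promoter peaks were left at 15 genes in AMG510 and 15 in trametinib, at 12 of the DMSO genes in AMG510 and 12 in trametinib, at 9 genes in all 3 lists and at 0 in IgG. With a score above 60 they were left at 23 (DMSO), 10 (AMG510) and 14 (trametinib) genes, at 10 and 11 of the DMSO genes in AMG510 and trametinib, at 9 in all 3 lists and at 0 in IgG. Over all genes the shares above that score were 9.80% (DMSO), 2.97% (AMG510) and 2.93% (trametinib). A stricter threshold leaves fewer peaks by construction. A window of 2 kb gave 2 genes in IgG. Among DMSO peaks of 20 tags or more, an alternative chosen after seeing the data, 88.9% overlapped an AMG510 peak and 83.3% a trametinib peak. With equally long c-MYC lists the counts were 31 (DMSO), 26 (AMG510) and 27 (trametinib) genes, so AMG510 and trametinib changed order. Over all genes the shares were then 18.1% (DMSO), 10.8% (AMG510) and 11.8% (trametinib), so the order changed there as well. No paired analysis was possible because only 1 library exists per treatment and antibody, so no replicate could be left out. At this depth a site below 7 or 8 tags is not called, so absence from a list is not absence of binding.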

Other observations

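Between the outermost ends of the protein-coding transcripts of each translation factor gene, and over 1 kb from any protein-coding start, the lists held 5 (DMSO), 5 (AMG510), 2 (trametinib) and 2 (IgG) peaks. Genes with such a peak made up 5.71% (DMSO), 7.14% (AMG510), 1.43% (trametinib) and 2.86% (IgG) of the set, beside 8.60%, 12.2%, 5.91% and 5.17% of all protein-coding genes, with gene length not taken into account. The DMSO peaks lay in EIF4G3 (2 intronic peaks of 13 and 11 tags), EIF2S2 (exon 9, 3′ UTR, 14 tags), EIF3I (beyond the canonical end, 14 tags) and EEF2. That of EEF2, with 32 tags (21.9 to 45.2), ran from 3984059 to 3984339 on chromosome 19 across coding exon 2 and held an E-box within 100 bp of its summit, the only one of these peaks to do so. No AMG510, trametinib or IgG peak overlapped it. The AMG510 peaks lay in EIF4G3, EIF3H, EIF5B and EIF4E3 with 9 or 10 tags, and at EEF1A1 beyond the end of the canonical transcript with 14. Both trametinib peaks, of 17 and 15 tags, lay in intron 1 of EIF4EBP1. None of these gene-body peaks was called at an overlapping position in another list.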
